A study of Mus musculus with 36 samples.

Results

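The genes described here are 6 members of the mouse Ly6 family, Ly6a, Ly6c1, Ly6c2, Ly6d, Ly6e and Ly6i, out of 54203 genes with a transcript in the deposited tables. They were taken from a list of names, and the list was picked from these libraries for rises of Ly6a, Ly6d and Ly6i. For these 3 genes, levels and fold changes are therefore given as a description, with no test. The other 3, Ly6c1, Ly6c2 and Ly6e, were tested within and between cohorts.

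Ly6 proteins are small surface proteins with a compact cysteine-rich fold, and most are tied to the outer membrane by a glycosylphosphatidylinositol (GPI) lipid anchor. They are used as cell surface markers of blood cell types, and several, among them Ly6a and Ly6e, are known to respond to interferons. Ly6a encodes Sca-1, a marker of blood stem cells and of activated lymphocytes. Ly6c1 and Ly6c2 encode the Ly6C antigens of monocytes, plasma cells and memory T cells. Ly6d marks B lineage commitment in early progenitors, Ly6e acts in virus entry and its restriction, and Ly6i is a close relative of Ly6a.

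RNA was sequenced from 36 libraries of plasma cells, the antibody-secreting cells that B cells turn into, sorted from the bone marrow of C57/BL6 mice as CD138 and TACI positive (and, per the labels, reporter positive) cells, 2000 cells per library. In cohort D the groups were Ccnd1, Ikk2ca(D), Ccnd1-Ikk2ca and Control(D). In cohort M they were MMSET, Ikk2ca(M), MMSET-Ikk2ca and Control(M). The groups carrying both alleles had 6 libraries each and all others 4. Ccnd1 encodes cyclin D1, MMSET is the histone methyltransferase encoded by Nsd2, and IKK2 is the kinase encoded by Ikbkb that releases NF-kB factors into the nucleus. The series models subgroups of multiple myeloma, a plasma cell cancer, and its design asks what each allele and each pair did to expression in plasma cells. The groups are named by the transgenes they carry; the promoter or Cre line behind each, the alleles the control mice carry, and the age and sex of the mice are not given in the sources used here. The labels do not say whether libraries of a group came from separate mice, so the spread between them may be partly technical.

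The 6 genes lie within a single stretch of chromosome 15 (GRCm38, GENCODE release M21 annotation). In order along the chromosome these are Ly6d (ENSMUSG00000034634, chr15:74762056-74763620, minus strand), Ly6e (ENSMUSG00000022587, chr15:74955051-74959905, plus strand), Ly6i (ENSMUSG00000022586, chr15:74979534-74983430, minus strand), Ly6a (ENSMUSG00000075602, chr15:74994877-74998031, minus strand), Ly6c1 (ENSMUSG00000079018, chr15:75044018-75048830, minus strand) and Ly6c2 (ENSMUSG00000022584, chr15:75108158-75111970, minus strand). The coding sequences of Ly6c1 and Ly6c2, 393 bases each, were 97.7% identical. Those of Ly6a and Ly6i were 86.3% identical, and either of them was 81.3% to 81.8% identical to Ly6c1 and Ly6c2. Ly6d and Ly6e were 48.4% to 52.3% identical to the other members and to each other. Of all 31-base words in a gene's transcripts, 46.8% in Ly6c1, 31.9% in Ly6a, 23.8% in Ly6c2 and 19.2% in Ly6i also occurred in another gene, against 0.42% in Ly6e and 0% in Ly6d. The division of reads among Ly6a, Ly6c1, Ly6c2 and Ly6i is therefore an estimate of the quantification program, and the value of Ly6c1 is the least certain.

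Promoter windows of the near-identical pair Ly6c1 and Ly6c2 are shown because their levels varied together between libraries while their levels differed widely. Each runs from 250 bases before to 50 after a gene start (RefSeq, GRCm38.p6), at chr15:75048788-75049087 for Ly6c1 and chr15:75111922-75112221 for Ly6c2, both read on the minus strand. Capitals mark runs of at least 12 bases found in both windows, 47 bases in each.
Ly6c1: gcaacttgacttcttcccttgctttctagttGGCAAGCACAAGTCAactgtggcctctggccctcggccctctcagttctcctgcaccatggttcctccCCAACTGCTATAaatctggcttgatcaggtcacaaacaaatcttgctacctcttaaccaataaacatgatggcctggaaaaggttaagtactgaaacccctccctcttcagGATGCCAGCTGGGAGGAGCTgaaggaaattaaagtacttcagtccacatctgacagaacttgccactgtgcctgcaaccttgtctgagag
Ly6c2: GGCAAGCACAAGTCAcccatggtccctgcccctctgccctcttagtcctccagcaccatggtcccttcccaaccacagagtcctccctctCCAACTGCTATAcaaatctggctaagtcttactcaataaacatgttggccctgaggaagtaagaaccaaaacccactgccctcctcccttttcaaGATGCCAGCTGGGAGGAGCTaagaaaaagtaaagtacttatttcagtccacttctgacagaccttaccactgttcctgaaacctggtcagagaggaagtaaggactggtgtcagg
Aligned over 334 columns, the windows matched at 208, or 62.3%, which is lower than the identity of the coding sequences. A loose NF-kB pattern, 3 G followed by 5 bases of any kind and 2 C on either strand, had 1 match in the Ly6c1 window, on the reverse strand 160 bases before the start, and 0 in the Ly6c2 window; 50.8% of 32851 mouse promoter windows of this length hold it. The interferon response pattern, GAAA and again GAAA with 2 bases of any kind between (in 3.44% of windows), and the gamma-activated site pattern TTCNNNGAA (in 8.30%) had 0 matches in either window. These are matches of letters and say nothing of binding. The table used held no window for the other 4 members.

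The libraries held 54.1 M to 97.6 M estimated reads, of which 43.8% to 72.9% fell on immunoglobulin genes. Each allele was checked through its own gene. Ccnd1 averaged 302 and 705 CPM (counts per M reads, M for mega, with TMM scaling) in the Ccnd1 and Ccnd1-Ikk2ca groups, against 0.838 in Control(D), and Nsd2 averaged 622 and 340.5 CPM in the MMSET and MMSET-Ikk2ca groups, against 3.31 in Control(M). Ikbkb averaged 53.3 to 57.1 CPM in the 4 groups with Ikk2ca, against 27.2 and 26.5 CPM in Control(D) and Control(M). The sort markers Sdc1 (CD138) and Tnfrsf13b (TACI) were at 150.5 CPM or more in every library. Xist, which female cells express, was above 10 CPM in all 4 Ikk2ca(D) and all 4 Ikk2ca(M) libraries. It was so in 1 of 4 Control(D) and 2 of 4 Control(M) libraries. For Ccnd1 and MMSET the counts were 2 and 3 of 4, and for Ccnd1-Ikk2ca and MMSET-Ikk2ca 3 of 6 each. Sex was therefore not balanced between groups. Apart from Xist as a covariate in the fits, its part in the Ly6 differences was not tested. MMSET replicate 1 stood apart in markers of other cells, with a neutrophil marker sum of 2630.5 CPM and a monocyte and macrophage marker sum of 1701 CPM, each the highest of the 36 libraries.

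Compared per length, Ly6c2 had the highest TPM (transcripts per M, which allows for length) of the 6 genes in 30 of 36 libraries, with a median of 2598 TPM. The medians over all libraries were 1048 TPM for Ly6a, 972 for Ly6e, 594 for Ly6d, 17.1 for Ly6i and 6.45 for Ly6c1. Ly6c1 stood at 0.113% to 0.975% of the Ly6c2 level, with a median of 0.247%. Ly6i ranged most widely, at 0.263% to 143% of the Ly6a level, with a median of 1.76%. The order of the groups was similar for the members, with the control groups and the Ccnd1 group at the low end and the MMSET-Ikk2ca group highest for all 6. For 5 of the 6 genes each of the 7 neighbouring pairs of groups in the order of means had overlapping libraries. For Ly6e this held for 6 of 7 pairs, the exception being Ikk2ca(D) and Control(M).

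**Figure D1:**
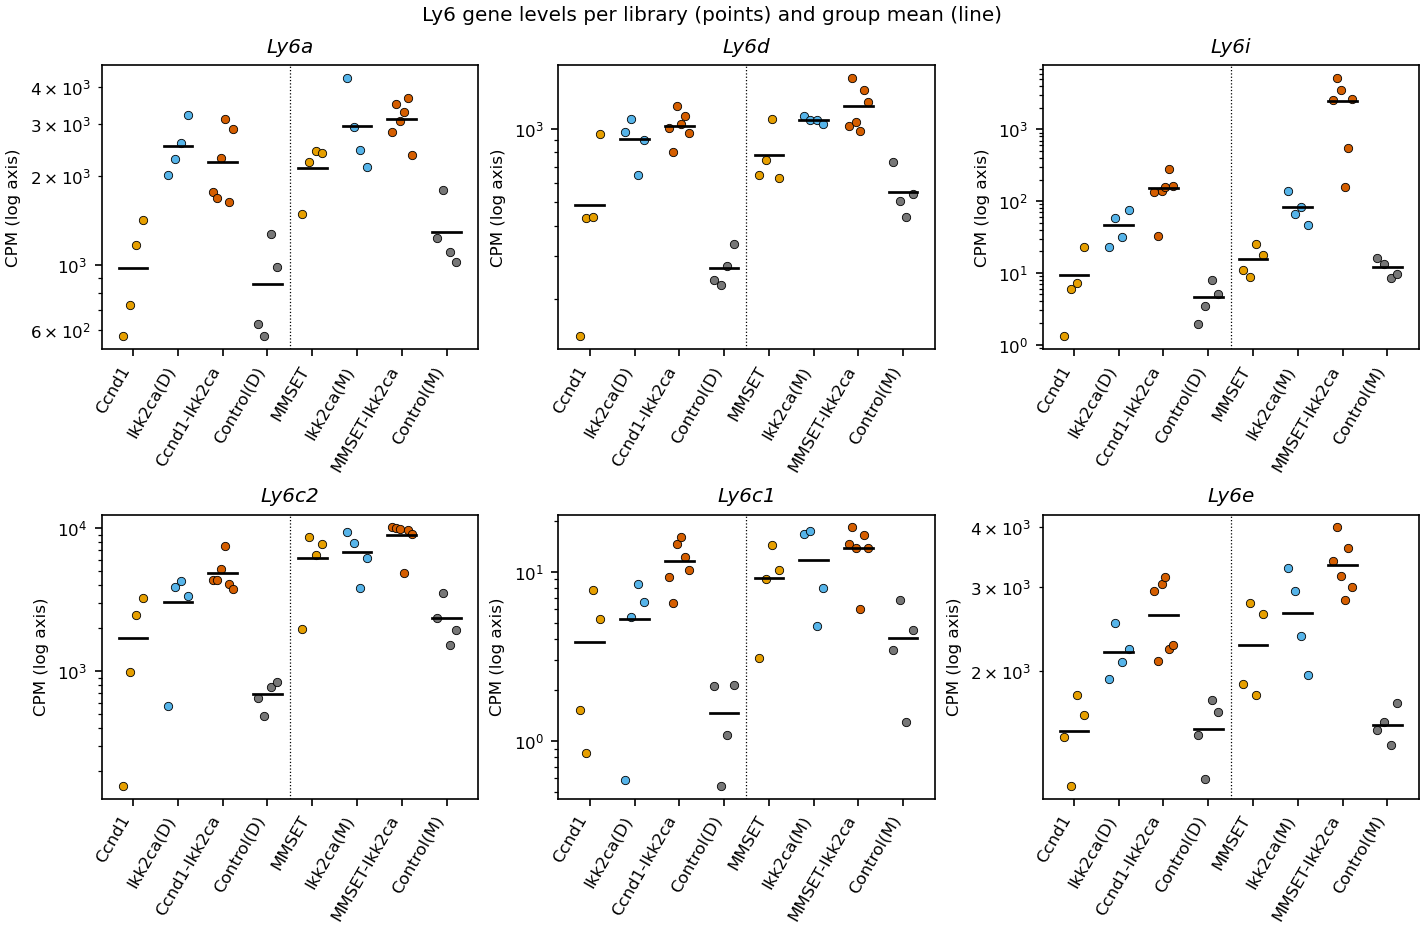
Level of each Ly6 gene in CPM (log axes) in the 36 libraries, by group; points are libraries, lines are group means, and the dotted line separates cohort D (left) from cohort M (right). Ly6i spans 1.3 to 5183 CPM, while Ly6e stays between 1154 and 3986 CPM.

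Ly6i showed the widest differences. Its levels were 2602, 5183, 3585, 156, 545 and 2659.7 CPM in the 6 MMSET-Ikk2ca libraries, against 16.2, 13.4, 8.60 and 9.66 CPM in the Control(M) libraries. All 6 MMSET-Ikk2ca libraries were above every Control(M) library, although they differed among themselves by 33.3-fold from the lowest, replicate 4, to the highest, replicate 2. The fold change on the log2 scale was 7.66 ± 0.97 (SE). The Ikk2ca(M) libraries had 138, 67.1, 83.0 and 47.2 CPM, a log2 fold change of 2.79 ± 0.78 against Control(M). The MMSET libraries had 11.1, 8.79, 25.2 and 17.8 CPM and overlapped Control(M), with a log2 fold change of 0.39 ± 0.74. The MMSET-Ikk2ca libraries were thus above every library of either single-allele group, by 4.87 ± 0.84 on the log2 scale against Ikk2ca(M). The log2 departure from the sum of the MMSET and Ikk2ca(M) differences was 4.48 ± 1.06 for Ly6i. For the other 5 members it was below 0, at -0.64 ± 0.29 for Ly6a, -0.95 ± 0.67 for Ly6c1, -1.01 ± 0.53 for Ly6c2, -0.30 ± 0.26 for Ly6d and -0.21 ± 0.22 for Ly6e.

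In cohort D the order was the same but the range was smaller. Ly6i had 136, 33.0, 137, 158, 279.5 and 162 CPM in the Ccnd1-Ikk2ca libraries and 22.9, 58.1, 31.9 and 75.6 CPM in the Ikk2ca(D) libraries. It had 1.3, 5.92, 7.25 and 22.6 CPM in the Ccnd1 libraries, against 1.96, 3.43, 8.04 and 5.04 CPM in Control(D). The Ccnd1-Ikk2ca and Ikk2ca(D) libraries were all above Control(D), with log2 fold changes of 5.01 ± 0.83 and 3.34 ± 0.79, and the Ccnd1 libraries overlapped it. The Ccnd1-Ikk2ca and Ikk2ca(D) libraries overlapped each other. The departure from the sum of the Ccnd1 and Ikk2ca(D) differences was 0.67 ± 0.98 for Ly6i.

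Relative to Ly6a, Ly6i was higher in the same groups. Because both genes share sequence, they were also summed to a single gene, whose log2 fold change was 2.08 in MMSET-Ikk2ca against Control(M) and 1.44 in Ccnd1-Ikk2ca against Control(D). For the summed gene the difference of MMSET-Ikk2ca against Ikk2ca(M) was 0.88, in place of 4.87 for Ly6i, and the departure from the sum of the MMSET and Ikk2ca(M) differences was 0.16, in place of 4.48. Ly6i stood at 4.60% to 143% of the Ly6a TPM in MMSET-Ikk2ca libraries (median 99.9%), at 2.17% to 3.30% in Ikk2ca(M) libraries and at 0.411% to 1.04% in MMSET libraries, against 0.707% to 1.33% in Control(M) libraries. In cohort D the shares were 1.95% to 16.5% in Ccnd1-Ikk2ca libraries, 1.12% to 2.54% in Ikk2ca(D) libraries and 0.263% to 1.57% in Ccnd1 libraries, against 0.297% to 0.597% in Control(D) libraries. No such shift was seen for the ratio of Ly6c1 to Ly6c2, whose ranges overlapped in all 8 groups. The transcripts of Ly6i kept their proportions, with Ly6i-201 holding 70.9% ± 0.33 (SD, n = 6) of its reads in MMSET-Ikk2ca libraries and 70.7% ± 4.96 (SD, n = 4) in Control(M) libraries.

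**Figure D2:**
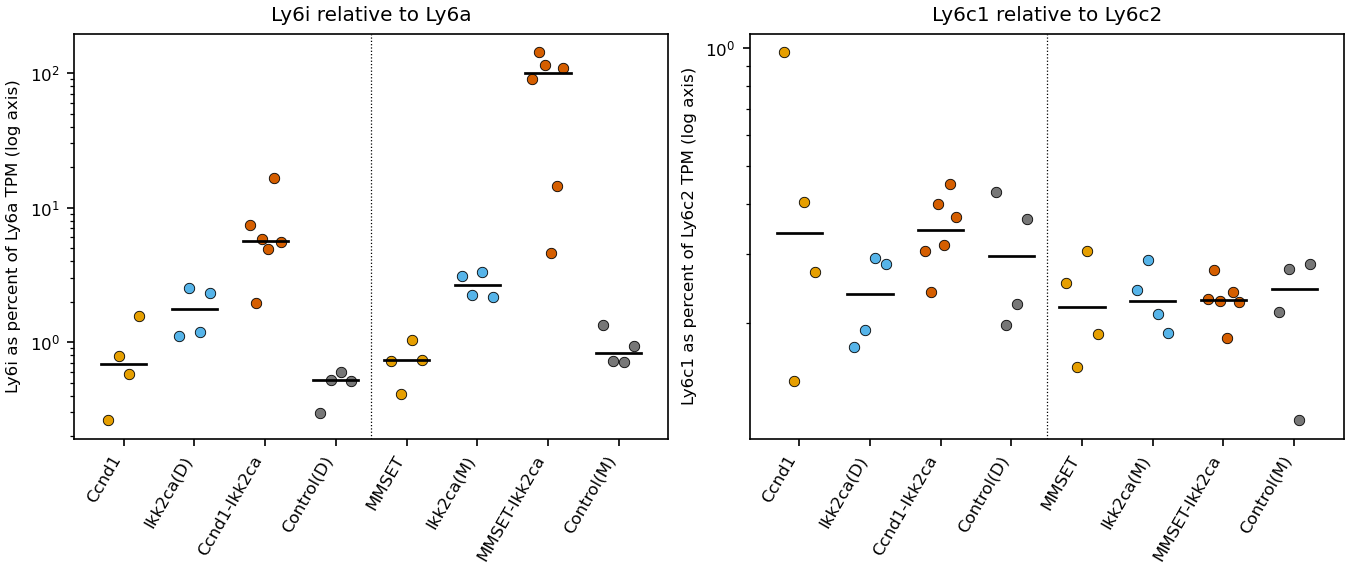
TPM of Ly6i as a percent of Ly6a (left) and of Ly6c1 as a percent of Ly6c2 (right) in each library (points, log axes), with the group median as a line. Ly6i reaches a median of 99.9% of Ly6a in the MMSET-Ikk2ca group, while the Ly6c1 share stays below 1% in every group.

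Ly6a, the Sca-1 gene, was expressed in every library at 571 CPM or more. It had 2009, 2289, 2584 and 3233 CPM in the Ikk2ca(D) libraries, against 629.7, 571, 1268 and 980.4 CPM in Control(D). The Ccnd1-Ikk2ca libraries had a lowest, median and highest value of 1633, 2036 and 3124 CPM. Both groups lay wholly above Control(D), with log2 fold changes of 1.54 ± 0.30 and 1.35 ± 0.28. The Ccnd1 libraries, at 571, 732, 1169 and 1413 CPM, overlapped Control(D), with a log2 fold change of 0.17 ± 0.30. In cohort M, Ly6a had 4297, 2944, 2456 and 2137 CPM in Ikk2ca(M) libraries and 1481, 2234, 2435 and 2392 CPM in MMSET libraries, against 1235, 1796, 1105 and 1021 CPM in Control(M) libraries. The MMSET-Ikk2ca libraries had a lowest, median and highest value of 2358, 3184 and 3693 CPM. The Ikk2ca(M) and MMSET-Ikk2ca libraries were all above Control(M), and the lowest MMSET library was below the highest Control(M) library. Log2 fold changes against Control(M) were 1.18 ± 0.22 for Ikk2ca(M), 1.26 ± 0.20 for MMSET-Ikk2ca and 0.72 ± 0.22 for MMSET.

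Ly6a reads were divided mainly between the transcripts Ly6a-201 and Ly6a-204. The share of Ly6a-201 was 42.9% ± 1.99 in Ccnd1-Ikk2ca and 45.1% ± 1.85 in Ccnd1 libraries, against 49.0% ± 0.81 in Control(D) libraries (SD, n = 6, 4 and 4). In cohort M it was 42.4% ± 3.20 in MMSET-Ikk2ca and 42.9% ± 1.11 in MMSET libraries, against 46.7% ± 0.98 in Control(M) libraries (SD, n = 6, 4 and 4). In Ikk2ca(D) and Ikk2ca(M) libraries it was 46.8% ± 2.47 and 45.5% ± 1.66 (SD, n = 4 each), with ranges that overlapped their controls. The MMSET-Ikk2ca range, 39.1% to 47.8%, also overlapped the Control(M) range, 45.4% to 47.8%. These shares are a description and were not tested.

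Ly6d, a gene of early B lineage cells, had 972, 1095, 647 and 902 CPM in the Ikk2ca(D) libraries, against 241, 230.0, 274 and 336 CPM in Control(D). The Ccnd1-Ikk2ca libraries had a lowest, median and highest value of 799.6, 1029 and 1237 CPM. The log2 fold changes were 1.73 ± 0.36 for Ikk2ca(D) and 1.91 ± 0.34 for Ccnd1-Ikk2ca, and in both groups all libraries exceeded Control(D). The Ccnd1 libraries spread from below to above Control(D), at 141, 432, 434 and 948 CPM, and the log2 fold change of 0.86 ± 0.35 was 0.32 without replicate 4. In cohort M, Ly6d had 1127, 1089, 1082 and 1049 CPM in the Ikk2ca(M) libraries and 648, 747, 1094 and 627 CPM in the MMSET libraries, against 732, 506, 435 and 539 CPM in the Control(M) libraries. The MMSET-Ikk2ca libraries had a lowest, median and highest value of 982, 1177 and 1612 CPM. Ikk2ca(M) and MMSET-Ikk2ca libraries were again all above their controls, by 0.95 ± 0.19 and 1.14 ± 0.18 on the log2 scale, and the MMSET libraries overlapped them at 0.49 ± 0.19.

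Ly6c2, the most abundant member, rose in both groups with a pair of alleles. It had 4367, 4317, 5227, 7546, 4092 and 3759 CPM in Ccnd1-Ikk2ca libraries, against 651, 486, 776 and 845 CPM in Control(D) libraries. The lowest Ccnd1-Ikk2ca library was above the highest control, with a log2 fold change of 2.80 ± 0.69 (edgeR adjusted p = 0.0182). This call was lost without Control(D) replicate 1 (adjusted p = 0.0551) or replicate 2 (adjusted p = 0.0631), at log2 fold changes of 2.78 and 2.67. In cohort M, Ly6c2 had 10149, 10116, 9970.0, 4876, 9733 and 9160.3 CPM in MMSET-Ikk2ca libraries, against 2370.4, 3532, 1516 and 1959 CPM in Control(M) libraries. These groups did not overlap either, and the log2 fold change was 1.92 ± 0.39 (edgeR adjusted p = 0.00757).

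Levels of Ly6c2 in the groups with a single allele were uneven. Ikk2ca(D) replicate 1 had 571 CPM, within the Control(D) range, while the other libraries of the group had 3909, 4282 and 3363 CPM, and the log2 fold change of 2.12 ± 0.70 did not pass (edgeR adjusted p = 0.200). The Ccnd1 libraries had 158, 986, 2466 and 3246 CPM, a spread of 20.5-fold that ran from below to above Control(D), with a log2 fold change of 1.31 ± 0.68 (edgeR adjusted p = 0.849). The Ikk2ca(M) libraries, at 9481, 7872, 3845 and 6246 CPM, were all above Control(M), yet the log2 fold change of 1.53 ± 0.40 did not pass (edgeR adjusted p = 0.116). MMSET replicate 1 had 1961 CPM and the other MMSET libraries 8658, 6484 and 7782 CPM; the log2 fold change of 1.40 ± 0.40 (edgeR adjusted p = 0.145) became 1.70 without replicate 1 and then passed (edgeR adjusted p = 0.0127). The Ikk2ca(M) difference for Ly6c2 also passed without MMSET replicate 1, which shares the spread estimate (edgeR adjusted p = 0.0217). The part of the myeloid markers of that library in these results was not tested.

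Ly6c1 followed Ly6c2 at a far lower level. It had 9.35, 6.56, 14.6, 16.1, 12.3 and 10.2 CPM in Ccnd1-Ikk2ca libraries, against 2.10, 0.544, 1.08 and 2.14 CPM in Control(D) libraries. The groups did not overlap, with a log2 fold change of 2.95 ± 0.68 (edgeR adjusted p = 0.00966). It had 14.6, 18.3, 13.8, 6.04, 16.4 and 13.7 CPM in MMSET-Ikk2ca libraries, against 3.43, 6.84, 1.3 and 4.54 CPM in Control(M) libraries. Here MMSET-Ikk2ca replicate 4 was below the highest control, and the log2 fold change was 1.76 ± 0.48 (edgeR adjusted p = 0.0343). Leaving out any of 8 libraries ended this call, among them 3 of the 4 controls, with adjusted p-values of up to 0.0960. With Ly6c1 and Ly6c2 summed to a single gene the value is that of Ly6c2, which supplies nearly all of the reads. How many Ly6c1 reads stem from Ly6c2 was not tested.

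Ly6e had the smallest spread between libraries, and it rose in both groups with a pair of alleles. It had 2933, 2101, 3032, 3137, 2225 and 2262 CPM in Ccnd1-Ikk2ca libraries and 1455, 1154, 1786 and 1617 CPM in Ccnd1 libraries, against 1474, 1192, 1741 and 1642 CPM in Control(D) libraries. The Ccnd1-Ikk2ca libraries lay above all Ccnd1 and Control(D) libraries. Ly6e rose by 0.77 ± 0.15 on the log2 scale against Control(D) (edgeR adjusted p = 0.00310) and by 0.78 ± 0.15 against Ccnd1 (edgeR adjusted p = 0.00443). Ikk2ca(D) libraries had 1922, 2513, 2087 and 2226 CPM, all above Control(D), but the log2 fold change of 0.52 ± 0.16 did not pass (edgeR adjusted p = 0.159). In cohort M, Ly6e had 3398, 3986, 3157, 2813, 3607 and 3001 CPM in MMSET-Ikk2ca libraries and 3284, 2941, 2371 and 1962 CPM in Ikk2ca(M) libraries. It had 1883, 2767, 1787 and 2626 CPM in MMSET libraries, against 1503, 1566, 1403 and 1713 CPM in Control(M) libraries. All 3 transgenic groups lay above Control(M). Ly6e rose in MMSET-Ikk2ca (1.09 ± 0.15, edgeR adjusted p = 0.000288) and in Ikk2ca(M) (0.75 ± 0.16, edgeR adjusted p = 0.0358), and its value of 0.55 ± 0.16 in MMSET did not pass (edgeR adjusted p = 0.146). The Ikk2ca(M) call was lost when any of 7 libraries was left out, with adjusted p-values of 0.0529 to 0.139, and with the replicate block (adjusted p = 0.0568).

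**Figure D3:**
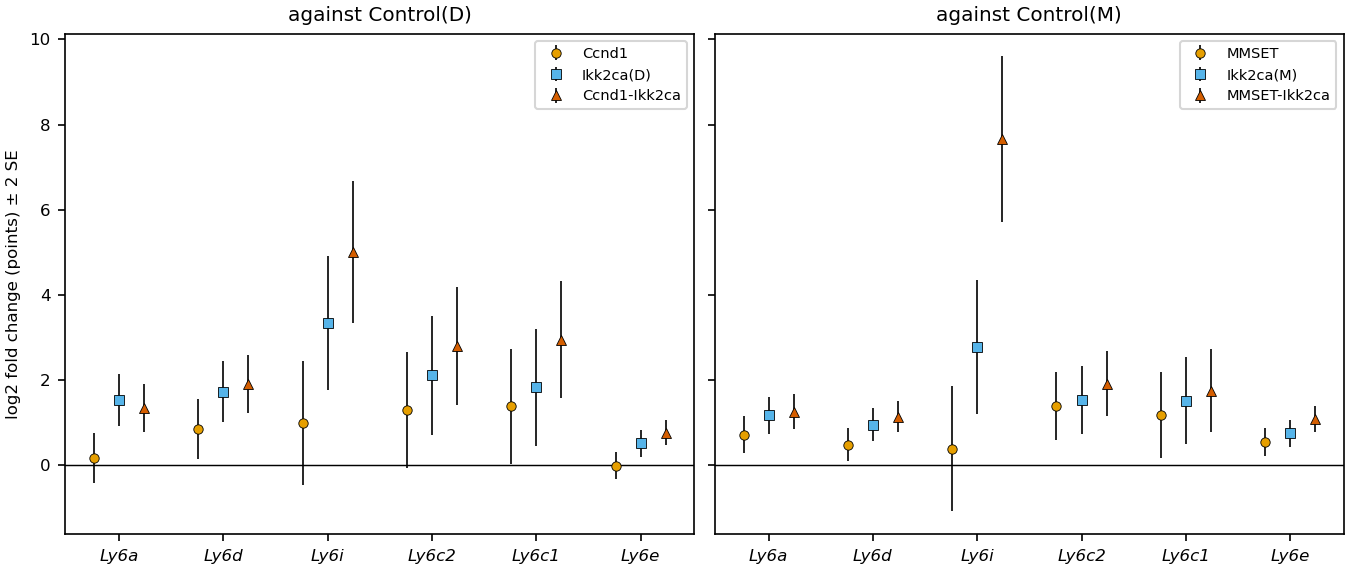
Log2 fold change of each Ly6 gene in the 3 transgenic groups of cohort D (left) and cohort M (right) against their control group; bars are 2 standard errors of the edgeR fit. Ly6i in MMSET-Ikk2ca, at 7.66, stands above all other values, and the points of Ly6a, Ly6d and Ly6i are a description with no test.

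Counted over the 3 tested genes, all 3 rose in Ccnd1-Ikk2ca against Control(D), where 11.1% of all genes were called in either direction (edgeR, adjusted p under 0.05), and all 3 rose in MMSET-Ikk2ca against Control(M), where 6.91% were. Ly6c1 and Ly6c2 share sequence and varied together within groups (r = 0.78), so the 3 genes may not be independent of each other. In MMSET-Ikk2ca the count was 2 with the replicate block, where Ly6c1 did not pass (edgeR adjusted p = 0.0967), and Ly6c1 did not pass in a fit of all 36 libraries either (edgeR adjusted p = 0.0604). In Ccnd1-Ikk2ca against Ccnd1 1 of 3 rose (6.2% of genes called) and in Ikk2ca(M) against Control(M) 1 of 3 (0.649%). In the remaining comparisons within cohorts 0 of 3 were called by edgeR. Shares in brackets below are those of edgeR at an adjusted p under 0.05, and those of DESeq2 and limma voom are not given here. For Ikk2ca(D) against Control(D) (0.437% of genes called) all 3 had an unadjusted edgeR p under 0.05, as did 2045 of all 15323 genes. DESeq2 called 1 there and limma voom 0. For MMSET against Control(M) (0.649%) all 3 had an unadjusted p under 0.05, as did 2048 of all 15416 genes. DESeq2 called 2 there and limma voom 0. For MMSET-Ikk2ca against MMSET (1.58%) 1 had an unadjusted p under 0.05, as did 2064 of 15416 genes. Each of DESeq2 and limma voom called 1 there. For MMSET-Ikk2ca against Ikk2ca(M) (0.96%) 1 had an unadjusted p under 0.05, as did 1934 of 15416 genes. DESeq2 and limma voom called 0 there, and likewise, with an unadjusted count of 0, in Ccnd1 against Control(D) (0.00653%), Ccnd1-Ikk2ca against Ikk2ca(D) (0.424%), the interaction of Ccnd1 with Ikk2ca(D) (0.0261%) and that of MMSET with Ikk2ca(M) (0.0973%). Where the unadjusted count was 0, the counts over all genes were 964, 1737 and 1051 of 15323 and 1605 of 15416, in that order. The comparisons with a control share its libraries and are not independent of each other. In these bulk libraries fewer cells of a kind and less RNA per cell cannot be told apart.

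Between the cohorts, Ly6i differed most between the groups with a pair of alleles. Its level in MMSET-Ikk2ca exceeded that in Ccnd1-Ikk2ca by 4.03 ± 0.68 on the log2 scale. The single MMSET-Ikk2ca library at 156 CPM, replicate 4, lay within the Ccnd1-Ikk2ca range of 33.0 to 279.5 CPM, and the other 5 lay above it. With Ly6a and Ly6i summed the difference was 1.23. Cohort and genotype cannot be told apart in this comparison. Set against the own controls of each cohort, the difference of the 2 effects was 2.66 ± 0.97 for Ly6i, and 0.65 with Ly6a and Ly6i summed. These values of Ly6i are a description with no test.

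Of Ly6c1, Ly6c2 and Ly6e, edgeR called 0 of 3 between MMSET-Ikk2ca and Ccnd1-Ikk2ca (2.49% of genes called), with adjusted p-values of 0.191 to 0.957. There 1 had an unadjusted edgeR p under 0.05, as did 2342 of all 17116 genes, and DESeq2 and limma voom called 0. For the difference of the 2 effects against the own controls edgeR called 0 of 3 (0.175% of genes). At an unadjusted edgeR p under 0.05 the count was 0 (1910 of all 17116 genes), and DESeq2 and limma voom called 0. That difference was -0.88 ± 0.72 for Ly6c2 and 0.32 ± 0.21 for Ly6e.

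All 6 members had a higher mean in Control(M) than in Control(D), with a median log2 difference of 1.20 beside 0.00 over all genes. For Ly6e the difference was only 0.03 ± 0.16 (1547 against 1513 CPM). For Ly6c2, and for the picked Ly6d and Ly6i, the 2 control groups did not overlap. The share of all genes without such overlap was not counted. Ly6c2 was 1.76 ± 0.58 higher in Control(M), which did not pass in edgeR (adjusted p = 0.347) and passed in DESeq2 (adjusted p = 0.00452). Ly6d was 1.03 ± 0.29 higher, given with no test. Of Ly6c1, Ly6c2 and Ly6e, edgeR called 0 between the controls (0.0409% of genes called), and 2 had an unadjusted p under 0.05 (1780 of all 17116 genes). DESeq2 called 1, Ly6c2, and limma voom 0. Between Ikk2ca(M) and Ikk2ca(D) 0 of 3 were called by any of these tools (0% of genes by edgeR). At an unadjusted edgeR p under 0.05 there was 1 (1390 of all 17116 genes). The difference of the Ikk2ca effects between cohorts was called for 0 of 3 by these tools (0% of genes by edgeR). At an unadjusted edgeR p under 0.05 there were 0 (1079 of all 17116 genes). These intervals are wide: that for Ly6c2, given as 2 standard errors to either side, ran from -2.17 to 1.0.

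Beyond the groups, the members varied together between libraries. Deviations of log2 CPM from group means were correlated at r = 0.78 between Ly6c1 and Ly6c2, at 0.66 between Ly6a and Ly6c2, and at 0.60 between Ly6c2 and Ly6d, over 36 libraries. The lowest values were 0.20 between Ly6d and Ly6e and 0.31 between Ly6e and Ly6i. For Ly6a and Ly6i r was 0.68 in cohort D and 0.09 in cohort M. The points share libraries, depth and, for the close copies, sequence, so these values are a description. The pooled SD of log2 CPM within groups was 1.19 for Ly6i, 1.02 for Ly6c1, 0.92 for Ly6c2, 0.45 for Ly6d, 0.41 for Ly6a and 0.24 for Ly6e.

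**Figure D4:**
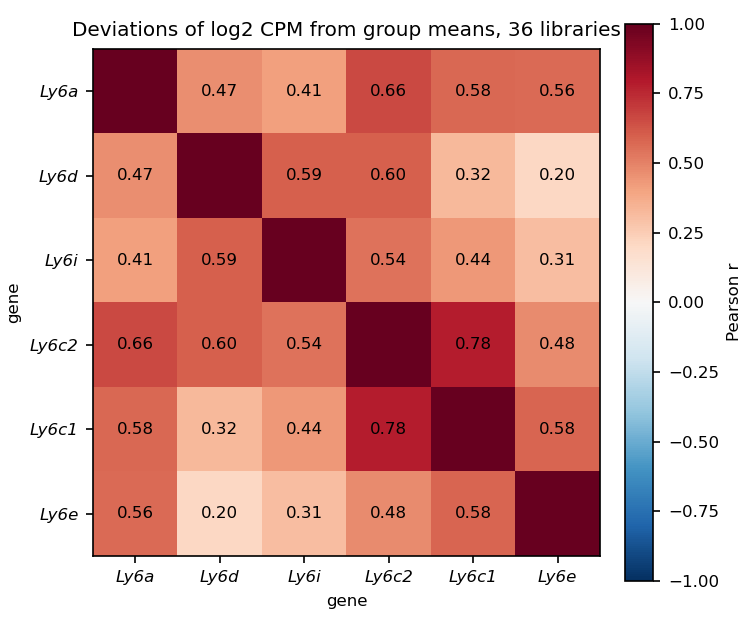
Pearson r between Ly6 genes of the deviations of log2 CPM from group means over 36 libraries; colour and number give r. Ly6c1 with Ly6c2 is highest at 0.78 and Ly6d with Ly6e lowest at 0.20.

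Among 5996 genes averaging 3 or more on the log2 CPM scale, those whose log2 CPM followed Ly6i most closely over the 36 libraries were Ifi27 (r = 0.90), Tap1 (0.89), Cd47 (0.88), Ifi204 (0.87) and Tmbim6 (0.87). Ifi27 and Ifi204 are interferon-inducible genes, Tap1 transports peptides for MHC class I, Cd47 is a surface protein that inhibits uptake by phagocytes, and Tmbim6 guards against endoplasmic reticulum stress. Ly6d was followed by Ifi211 (0.93), Gpm6a (0.92), Abcg1 (0.91), Ncan (0.91) and Cldn7 (0.91). Ly6a was followed by Ifi211 (0.88), Cd52 (0.87), Tmem176a (0.87), Gpm6a (0.86) and Ly6d (0.86). Ifi211 is an interferon-inducible gene, Abcg1 exports cholesterol, Gpm6a and Ncan are best known from neurons, Cldn7 is a tight junction protein, and Cd52 is a small GPI-anchored protein of lymphocytes. Within groups these values were lower, at 0.51 to 0.70 for Ly6i, 0.67 to 0.79 for Ly6d and 0.43 to 0.52 for Ly6a.

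Of other genes in the Ly6 and uPAR family, 10 of 36 listed were measured in cohort D and 13 in cohort M. The listed names Ly6g2, Ly6m and Ly6a2 matched no gene name in the annotation used. Any change of these genes under another name is not counted here. In Ccnd1-Ikk2ca against Control(D) 2 rose and 8 did not pass, so 20% were called, beside 11.1% of all genes. Cd59a, an inhibitor of complement, had 64.4 ± 43.7 against 9.72 ± 2.90 CPM (log2 fold change 2.71, edgeR adjusted p = 0.0129) and Lynx1, a modulator of acetylcholine receptors that neighbours Ly6d, had 17.5 ± 7.12 against 4.47 ± 1.39 CPM (1.96, edgeR adjusted p = 0.0136). In MMSET-Ikk2ca against Control(M) 2 rose and 11 did not pass, so 15.4% were called, beside 6.91% of all genes. Cd59a had 84.7 ± 34.6 against 14.4 ± 2.36 CPM (2.54, edgeR adjusted p = 0.000116), and Tex101, a testis antigen, had 31.7 ± 33.7 against 0.0357 ± 0.0154 CPM. Cd59a was also the 1 of 13 that rose in MMSET (1.55, edgeR adjusted p = 0.0289), or 7.69%, beside 0.649% of all genes called. The list medians of the log2 fold change were 1.13 for Ccnd1-Ikk2ca, 0.96 for Ikk2ca(D) and 1.02 for Ccnd1, and 2.06 for MMSET-Ikk2ca, 1.36 for Ikk2ca(M) and 2.21 for MMSET, so they were above 0 in the groups with a single allele as well. These medians rest mostly on genes that did not pass. In Ccnd1, Ikk2ca(D) and Ikk2ca(M) 0 were called, beside 0.00653%, 0.437% and 0.649% of all genes. The list median of the departure from the sum of the MMSET and Ikk2ca(M) differences was -2.23. The medians over all genes lay between -0.01 and 0.02.

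Of 23 protein-coding genes within 500 kb of a member, 8 were measured in cohort D and 9 in cohort M. Beside the counts below, 11.1% of all genes were called in Ccnd1-Ikk2ca against Control(D) and 6.91% in MMSET-Ikk2ca against Control(M). Lynx1 was the 1 that rose in Ccnd1-Ikk2ca against Control(D). The gene model 2010109I03Rik (chr15:74876987-74897021) fell there by 1.75 ± 0.46 on the log2 scale, to 1.98 ± 1.27 CPM in Ccnd1-Ikk2ca, against 6.57 ± 2.78 CPM in Control(D) (edgeR adjusted p = 0.0203). In MMSET-Ikk2ca it had 0.257 ± 0.272 CPM, against 5.68 ± 2.05 CPM in Control(M) (-4.48 ± 0.84, edgeR adjusted p = 0.00273). It lies between Ly6d and Ly6e, and it fell in groups where the tested members rose.

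Most Ly6 proteins need a GPI anchor, and of 29 genes for its synthesis and transfer Pigz, a mannosyltransferase, was the 1 that rose. That is 3.45% of the list in each comparison below, beside 11.1% of all genes called in Ccnd1-Ikk2ca, 6.91% in MMSET-Ikk2ca and 0.649% in Ikk2ca(M). It had 27.3 ± 5.58 against 1.35 ± 0.91 CPM in Ccnd1-Ikk2ca and Control(D) (4.32 ± 1.22, edgeR adjusted p = 0.0345), and 28.7 ± 15.4 against 1.05 ± 0.74 CPM in MMSET-Ikk2ca and Control(M) (4.75 ± 0.60, edgeR adjusted p = 0.000121). It also rose in Ikk2ca(M), to 7.13 ± 2.17 CPM (2.74, edgeR adjusted p = 0.0266). In each of these comparisons the other 28 did not pass, and the list medians lay between 0.07 and 0.29. Other GPI-anchored surface proteins moved in both directions: 2 of 10 rose and 2 fell in Ccnd1-Ikk2ca, and 2 of 11 rose and 3 fell in MMSET-Ikk2ca, with medians of -0.13 and 0.06. Cd52 had 1559 ± 656 against 206 ± 60 CPM in Ccnd1-Ikk2ca and Control(D) (2.90, edgeR adjusted p = 0.00842) and 1594 ± 574 against 328 ± 73.1 CPM in MMSET-Ikk2ca and Control(M) (2.26, edgeR adjusted p = 0.000105). Cd48, an adhesion receptor, fell by 1.65 in Ccnd1-Ikk2ca (edgeR adjusted p = 5.18e-05) and by 2.02 in MMSET-Ikk2ca (edgeR adjusted p = 0.00158) on the log2 scale. Nt5e (CD73) had 0 reads in MMSET-Ikk2ca, against 3.51 ± 1.91 CPM in Control(M), and 3 reads in all in Ccnd1-Ikk2ca, against 3.65 ± 3.82 CPM in Control(D).

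Interferons and NF-kB are known routes to Ly6 genes, so lists of both are given beside the members; the lists were written with earlier results of these data known. Of interferon stimulated genes, 17 of 45 measured rose in Ccnd1-Ikk2ca, with a median log2 fold change of 0.38, and the other 28 did not pass. In MMSET-Ikk2ca 18 of 49 rose, with a median of 1.69, and 31 did not pass. DESeq2 called 29 of the 49, and its own share of all genes called is not given here. Of all genes, 11.1% were called in Ccnd1-Ikk2ca and 6.91% in MMSET-Ikk2ca against controls, in either direction (edgeR). Gbp3 and Gbp7, GTPases induced by interferon gamma, rose by 2.85 and 2.94 in Ccnd1-Ikk2ca (edgeR adjusted p = 0.000578 and 0.00323). Ifitm3, which blocks virus entry, and Ifi27 rose by 2.38 and 2.12 in MMSET-Ikk2ca (edgeR adjusted p = 0.000174 and 0.000478). In the groups with a single allele the called genes were as follows. B2m, the light chain of MHC class I, was the 1 of 45 in Ikk2ca(D) (0.92, edgeR adjusted p = 0.0225), Psmb8, an immunoproteasome subunit, the 1 of 49 in Ikk2ca(M) (0.67, edgeR adjusted p = 0.0195), and Zbp1, a nucleic acid sensor (1.23, edgeR adjusted p = 0.0160), and Ifi44, at 5.51 ± 3.89 CPM in MMSET against 0.0359 ± 0.0514 CPM in Control(M), the 2 of 49 in MMSET. These are 2.22%, 2.04% and 4.08% of the list, beside 0.437%, 0.649% and 0.649% of all genes called in Ikk2ca(D), Ikk2ca(M) and MMSET. DESeq2 called 6, 6 and 7 as higher in these groups. Its own share of all genes called is not given here, so these counts lack a background. Of 19 interferon receptors and signal carriers, 7 rose and 4 fell in Ccnd1-Ikk2ca (median 0.32), and 9 rose in MMSET-Ikk2ca (median 0.65) while 10 did not pass. Tyk2, a kinase of interferon receptors, rose by 1.08 in Ccnd1-Ikk2ca and 1.12 in MMSET-Ikk2ca (edgeR adjusted p = 0.00174 and 0.00274).

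Of 24 NF-kB feedback and target genes, 4 rose in Ikk2ca(D) (median log2 fold change 0.63) and 5 in Ikk2ca(M) (median 0.49). Of all genes, 0.437% and 0.649% were called in these comparisons with controls, in either direction. In Ccnd1-Ikk2ca 7 rose and 1 fell (median 0.50), and in MMSET-Ikk2ca 8 rose and 2 fell (median 1.0). There the shares of all genes called were 11.1% and 6.91%. Icam1, an adhesion molecule, had 122 ± 37.1 CPM in Ikk2ca(D), against 26.4 ± 8.35 CPM in Control(D) (2.2, edgeR adjusted p = 0.00248), and 206 ± 59.0 CPM in Ikk2ca(M), against 37.4 ± 21 CPM in Control(M) (2.44, edgeR adjusted p = 0.00639). Relb, an NF-kB subunit, rose by 1.34 and 1.29 in these groups (edgeR adjusted p = 0.0198 and 0.0132).

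**Figure D5:**
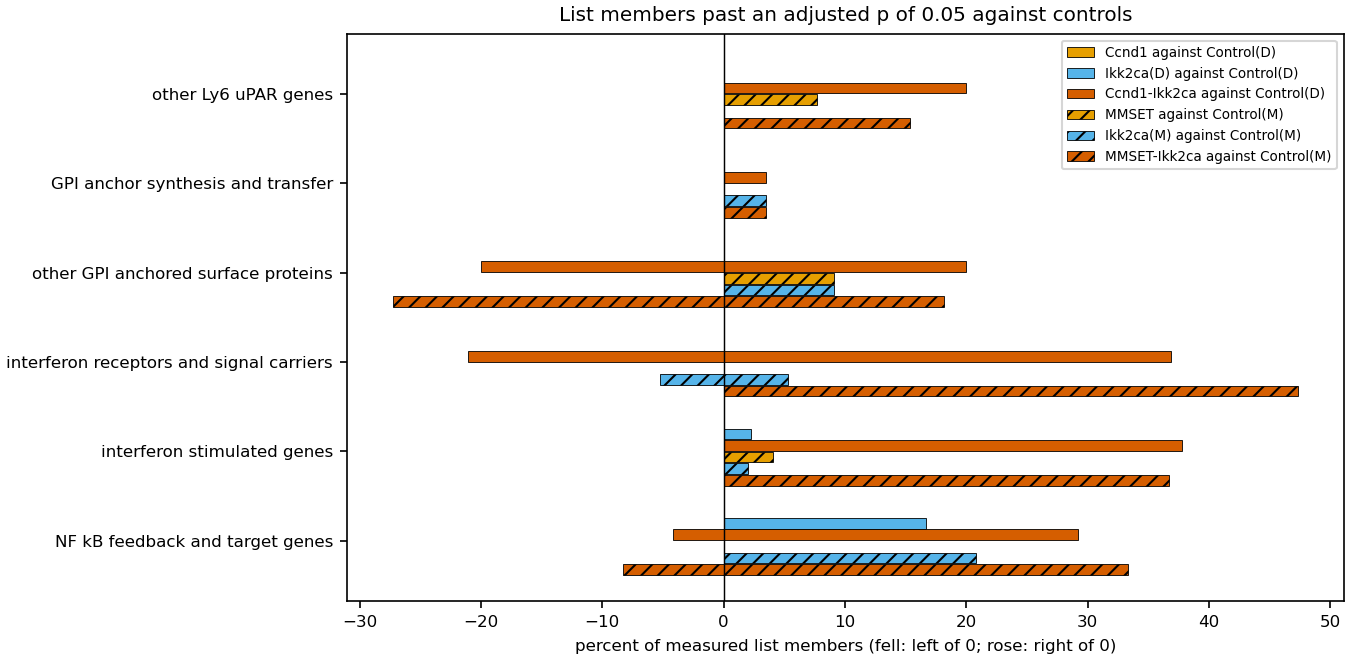
Percent of measured members of 6 gene lists that rose (right of 0) or fell (left of 0) against controls at an edgeR adjusted p under 0.05, in the 3 transgenic groups of cohort D (plain bars) and cohort M (hatched bars). Interferon stimulated genes that rose make up 37.8% of the list in Ccnd1-Ikk2ca and 36.7% in MMSET-Ikk2ca, and interferon receptors and signal carriers that rose make up 47.4% in MMSET-Ikk2ca. Of all genes, 11.1% were called in Ccnd1-Ikk2ca and 6.91% in MMSET-Ikk2ca, in either direction.

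Markers of plasma cells and of the other cell types that a marrow sort could hold were read beside these results. The 14 plasma cell markers were present in every group, with summed levels of 6160 to 7907 CPM in MMSET-Ikk2ca and 8820 to 21516 CPM in Ccnd1-Ikk2ca, against 32219 to 43693 CPM in Control(M) and 55221 to 101214 CPM in Control(D), where Jchain, the joining chain of secreted antibody, held most of the sum. Of the 14 markers 1 rose and 4 fell in MMSET-Ikk2ca and 5 fell in Ccnd1-Ikk2ca, and the other 9 in each did not pass. Beside this, 6.91% and 11.1% of all genes were called in these comparisons.

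Among the carriers of Ly6C, 16 monocyte and macrophage markers summed to 619 to 1045 CPM in MMSET-Ikk2ca and 442 to 829.6 CPM in Ccnd1-Ikk2ca, against 506 to 792 CPM in Control(M) and 417 to 541 CPM in Control(D). Ctss, a lysosomal protease, had the highest level of the list in every library of these 4 groups. Markers named here were chosen after their values were seen. C1qb, a complement subunit of macrophages, averaged 19.5 CPM in MMSET-Ikk2ca and 4.53 CPM in Ccnd1-Ikk2ca, against 3.40 CPM in Control(M) and 4.58 CPM in Control(D), and the lowest MMSET-Ikk2ca library, at 9.90 CPM, was above the highest Control(M) library, at 5.16 CPM. The receptor Csf1r averaged 0.753 and 0.839 CPM in MMSET-Ikk2ca and Ccnd1-Ikk2ca, against 2.03 and 2.31 CPM in Control(M) and Control(D), and Cd14 was at 0 in Ccnd1-Ikk2ca. The 13 neutrophil markers summed to 1.64 to 14.5 CPM in MMSET-Ikk2ca and 1.26 to 210.4 CPM in Ccnd1-Ikk2ca, against 39.6 to 190.4 CPM in Control(M) and 54.0 to 514 CPM in Control(D), with Prtn3 at 0 in MMSET-Ikk2ca. Ly6g, the Ly6 family marker of neutrophils, averaged 0.119 and 1.16 CPM in MMSET-Ikk2ca and Ccnd1-Ikk2ca, against 1.26 and 2.14 CPM in Control(M) and Control(D).

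The 18 markers of T and NK cells summed to 25.3 to 105 CPM in MMSET-Ikk2ca and 38.3 to 80.9 CPM in Ccnd1-Ikk2ca, against 46.6 to 64.8 CPM in Control(M) and 82.6 to 114 CPM in Control(D), and Cd3e averaged below 1 CPM in all 4 groups. The 10 markers of plasmacytoid dendritic cells, which carry Ly6C, summed to 96.5 to 152 CPM in MMSET-Ikk2ca and 69.2 to 133 CPM in Ccnd1-Ikk2ca, against 144 to 154 CPM in Control(M) and 167 to 204 CPM in Control(D). For B cell precursors, where Ly6d is known, 10 markers summed to 12.6 to 58.3 CPM in MMSET-Ikk2ca and 9.28 to 37.1 CPM in Ccnd1-Ikk2ca, against 48.2 to 78.3 CPM in Control(M) and 52.4 to 87.0 CPM in Control(D). Rag2 was at 0 in all 4 of these groups, and Rag1 in all of them but Control(M). Cd93 held most of the B cell precursor sum in each library of the 4 groups, at 57.0 of 58.3 CPM in MMSET-Ikk2ca replicate 4. Tcf4 likewise held most of the plasmacytoid dendritic cell sum. Cd28 had the highest level of the T and NK cell list, save for Klrk1 in Ccnd1-Ikk2ca replicates 3, 4 and 6.

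The sums of 18 B cell markers, by contrast, were higher, at 7731 to 14072 CPM in MMSET-Ikk2ca and 4842 to 10604 CPM in Ccnd1-Ikk2ca, against 3555 to 7265 CPM in Control(M) and 3800.4 to 5592 CPM in Control(D). Cd74, the MHC class II chaperone, held most of each sum, while 12 of 17 measured B cell markers fell in MMSET-Ikk2ca and 11 of 18 in Ccnd1-Ikk2ca. Beside this, 6.91% and 11.1% of all genes were called in these comparisons, in either direction. The 9 markers of blood stem and progenitor cells, which carry Sca-1, summed to 26.6 to 63.3 CPM in MMSET-Ikk2ca and 2.21 to 29.4 CPM in Ccnd1-Ikk2ca, against 12.8 to 16.1 CPM in Control(M) and 2.73 to 7.80 CPM in Control(D), led by Kit in MMSET-Ikk2ca. Cd34 was at 0 in all 4 of these groups but Control(M). The 11 markers of stroma and endothelium summed to 26.7 to 82.8 CPM in MMSET-Ikk2ca and 11.5 to 29.3 CPM in Ccnd1-Ikk2ca, against 8.70 to 16.8 CPM in Control(M) and 6.07 to 16.5 CPM in Control(D), led by Pecam1, with Emcn and Pdgfra at 0 in all 4 groups. The part of these differences in the Ly6 results was not tested.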

How the data were processed

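RNA of 2000 sorted cells per library was converted with oligo-dT priming and template switching and made into Nextera XT libraries, per the labels' protocols. Reads were quantified against mouse transcripts with Salmon 1.3.0 (GRCm38), and bcl2fastq 2.20.0.422 and DESeq2 1.32.0 are also named, per the submitters' processing notes; the step that used DESeq2 is not given in the sources used here. The deposited tables hold estimated counts and TPM per transcript, made by the authors. Here the estimated counts were summed per gene through GENCODE release M21 and rounded to whole numbers, and TPM was summed for levels between genes. Of 140825 transcripts 139960 matched; the other 865 held 0.0636% to 0.134% of reads.

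CPM values use TMM scaling over 36 libraries. Tests used edgeR 4.0.16 (quasi-likelihood, robust, filterByExpr) in R 4.3.3, within each cohort (15323 and 15416 genes) and over all libraries for comparisons between cohorts (17116 genes), with Benjamini-Hochberg adjustment over all genes and a threshold of 0.05. DESeq2 1.42.0 and limma 3.58.1 (voom with quality weights) were alternatives, as were other filters and scalings, summed near-identical copies and leaving out each library. The steps were tested on simulated data. The members and lists were chosen with earlier results of these data known, and the members Ly6a, Ly6d and Ly6i for their rises. Tests between cohorts were planned for all 6 members, and p-values of these 3 are not given because the choice used the same libraries. Of each list, the 3 called genes with the smallest p in a comparison could be named, and for likeness the 5 genes with the highest r. The labels do not say whether replicates are separate mice, so p-values measure the spread between libraries. Same-numbered libraries of different groups deviated together at r = -0.044 to 0.111 over 48 pairs. Per pair of groups the mean r was 0.00254 to 0.0523, against -0.0175 to -0.000848 for libraries of other numbers. It was higher for the same number in every pair of groups. The main fits did not pair libraries by number, and a fit with the number as a block was an alternative. Whether the numbers stand for a batch is not given in the sources used here.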

Additional observations from a re-analysis of the deposited data

Results flagged for a closer look

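Of 48 sets of group values, 8 groups for each of 6 genes, 2 held a library far from the others of its group by Dixon's test, and chance marks about 1 group in 20. Both were MMSET-Ikk2ca replicate 4, which had the lowest value of the 6 libraries, at 6.04 CPM for Ly6c1 and 4876 CPM for Ly6c2. The same library had the lowest Ly6i level of its group, 156 CPM, which did not meet the criterion.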

How the results depend on the processing

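Of 1020 fold changes under settings other than leaving out a library, 989 were counted as kept. Where tested, these kept their side of the threshold, and where not tested they moved by less than the SD between libraries. A change of sign was counted apart only for a called gene or an untested value larger than that SD. Of the others, 15 untested ones moved by more, 10 came to pass the threshold, 4 no longer passed and 2 changed sign in this sense. Among those that moved, 1 also changed sign with copies summed. This was Ly6a in the difference between cohorts of the pair-of-alleles effects, from -0.09 to 0.65. With 1 library left out, 2354 of 2376 were kept in this sense. Summing the near-identical copies (Ly6a with Ly6i, Ly6c1 with Ly6c2) turned the sign of Ly6i in Ccnd1-Ikk2ca against Ikk2ca(D), to -0.12, and of the Ly6a interaction of MMSET and Ikk2ca(M), to 0.16; the summed gene consists mostly of Ly6a reads outside MMSET-Ikk2ca. Under DESeq2 the number of called genes among Ly6c1, Ly6c2 and Ly6e was 1 in Ikk2ca(D) against Control(D), 2 in Ccnd1-Ikk2ca against Ccnd1, 2 in MMSET and 2 in Ikk2ca(M) against Control(M), and 1 in MMSET-Ikk2ca against MMSET. In Control(M) against Control(D) DESeq2 called 1 of the 3, Ly6c2. Limma voom called 3 in Ccnd1-Ikk2ca against Ccnd1 and 1 in MMSET-Ikk2ca against MMSET. How many of all genes these 2 tools called is not given here. For Ikk2ca(M) against Control(M) the count was 0 with only the groups compared in the fit and 0 with the replicate block, and 0 to 2 with 1 library left out. That range was 0 to 1 for MMSET against Control(M). With the replicate block, MMSET-Ikk2ca against Control(M) had 2 called genes, as Ly6c1 was lost (edgeR adjusted p = 0.0967), and over all genes 682 in place of 1065 were called there and 1030 in place of 1708 in Ccnd1-Ikk2ca against Control(D). In the check of the numbers, a library correlated best with the same-numbered library of the other group in 18 of 48 pairs. In each case 1 of 4 candidate libraries had that number. The cause of these changes was not tested. Xist as a covariate changed the call of 0 members. Among the members Ly6c1 had the lowest median TPM and the largest share of 31-base words found in other genes. Its level ran from 0.544 to 18.3 CPM.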
